A study of Mus musculus with 11 samples.

Results

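The effect of 10 days of JZL184 on gene expression was measured in the hearts of complete deletion (CD) mice, by comparing 3 CD mice given JZL184 (CD JZL184) with 3 CD mice given vehicle (CD VEH). Every gene with a mean of at least 1 CPM, the count after scaling all libraries to the same size, over these 6 mice was taken, which gave 12228 of the 22608 genes in the table. All 6 mice were males on a C57BL/6J background and carried a single copy of the chromosome 5 interval from Gtf2i to Fkbp6, the mouse counterpart of the segment lost in Williams-Beuren syndrome (WBS). JZL184 was injected intraperitoneally every day at 8 mg/kg, dissolved in dimethyl sulfoxide, polyethylene glycol, Tween-80 and saline, and controls received vehicle, although one field of the sample labels calls them untreated. The mice were 8 to 16 weeks old, the tissue was labelled as ventricle, and WT littermates (2 WT VEH and 3 WT JZL184 mice) entered the same model. Nothing in the labels says how many litters the mice came from, so the p-values measure the spread between these mice.

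JZL184 irreversibly inhibits monoacylglycerol lipase (MAGL, encoded by Mgll), a serine hydrolase that splits the endocannabinoid 2-arachidonoylglycerol into arachidonic acid and glycerol. When the enzyme is blocked, this lipid accumulates and acts on the cannabinoid receptors CB1 and CB2, and prolonged inhibition is known to desensitize CB1. MAGL also releases the last fatty acid from monoglycerides during lipolysis, and the arachidonic acid it frees feeds prostaglandin synthesis. In the heart, CB1 is found in cardiomyocytes, endothelium and nerve endings, and CB2 mainly in immune cells. The deleted interval holds the elastin gene and the transcription regulator Gtf2i, and CD mice are used as a model of the cardiovascular disease of WBS, which includes cardiac hypertrophy.

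The libraries of the 6 CD mice held 80252071 to 92251443 counts, at which 3 counts correspond to 0.0325 to 0.0374 CPM (counting error only). Mouse letters A, C and E come from the headers of the table in both groups, and nothing in the labels says that they pair the mice. Values in individual mice are given in that order. All 14 tested genes of the deleted interval were below all WT mice in each CD mouse, as the genotype labels require, and no gene in the table can check the treatment label. The mitochondrial genome gave 36.4% to 40.2% of the counts in CD JZL184 and 43.5% to 44.7% in CD VEH. Because these are whole ventricles, fewer cells of a type and less RNA per cell cannot be told apart.

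Expression differed for 3858 genes (31.6% of those tested), of which 1945 (15.9%) were upregulated and 1913 (15.6%) were downregulated in CD JZL184 relative to CD VEH. These are the differentially expressed genes (DEGs), with an adjusted p-value under 0.05 in edgeR's quasi-likelihood test, and 5428 genes had an unadjusted p-value under 0.05. The changes were small, the median log2 fold-change being 0.32 for the upregulated and -0.39 for the downregulated genes, and 3 DEGs exceeded 1 upward and 28 downward on the log2 scale. The CPM values of the 2 groups did not overlap for 6497 genes (53.1%), including 3796 of the DEGs, so that a gap between the groups is common among all genes and nearly general among DEGs. Leaving out a single CD mouse gave 1000 to 2060 upregulated and 965 to 1903 downregulated DEGs. The numbers dropped to 1233 and 1163 without CD JZL184 mouse A, to 1017 and 1042 without CD JZL184 mouse E, to 1057 and 991 without CD VEH mouse A, and to 1000 and 965 without CD VEH mouse E.

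Among DEGs with a mean of at least 10 CPM and no overlap between the groups, the lowest log2 fold-change was that of Cyp26b1, which encodes an enzyme that breaks down retinoic acid. It had 15.4, 48.2 and 10.7 CPM in CD VEH and 2.77, 6.41 and 2.75 CPM in CD JZL184. The highest treated mouse lay below the lowest control, as the choice of genes required. CD VEH mouse C was far above its group, and the log2 fold-change of -2.63 (SE 0.63, adjusted p = 0.0102 by edgeR) became -1.70 in its absence (edgeR adjusted p = 0.0331). Hmox1, which encodes the inducible heme oxygenase, had 9.04, 8.36 and 32.3 CPM in CD VEH and 5.06, 6.19 and 4.54 CPM in CD JZL184 (adjusted p = 0.0201 by edgeR, log2 fold-change -1.65, SE 0.47). Its size rested on CD VEH mouse E, without which the log2 fold-change was -0.72 (edgeR adjusted p = 0.0929), and the call was also lost without CD JZL184 mouse A (0.0618) or E (0.0714). Ube2l6, which conjugates the ubiquitin-like protein ISG15 to its targets, had 51.1, 14.3 and 15.02 CPM in CD VEH and 8.73, 11.5 and 10.5 CPM in CD JZL184 (adjusted p = 0.0192 by edgeR, log2 fold-change -1.39, SE 0.39). Without CD VEH mouse A its log2 fold-change was -0.51 (edgeR adjusted p = 0.0198), and without CD JZL184 mouse A or E the edgeR adjusted p was 0.0671 or 0.0583.

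The other 5 genes with the lowest log2 fold-changes kept their call with any CD mouse left out. Ccl6 and Pf4 encode chemokines, of which Ccl6 had 16.3, 15.7 and 21.8 CPM in CD VEH and 6.46, 10.3 and 5.58 CPM in CD JZL184 (adjusted p = 0.00465 by edgeR, log2 fold-change -1.26, SE 0.25). Pf4, made by platelets and tissue macrophages, had 15.9, 10.98 and 14.4 CPM in CD VEH and 5.39, 7.97 and 6.80 CPM in CD JZL184 (-1.03 as log2 fold-change). Lyve1, a hyaluronan receptor of lymphatic endothelium and of resident macrophages, had 22.1, 18.1 and 21.9 CPM and 9.68, 11.9 and 9.83 CPM in the same order (log2 fold-change -0.98). Every treated mouse lay below every control in these 3 genes, as the choice of genes without overlap required. Ctla2a, related to the propeptide of cysteine proteases, and the interferon-induced gene Ifi27l2a had log2 fold-changes of -1.15 and -1.02.

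At the other end, Fnip2, which encodes a partner of folliculin in nutrient sensing, had 14.0, 12.6 and 11.9 CPM in CD VEH and 20.2, 18.6 and 40.7 CPM in CD JZL184 (adjusted p = 0.0093 by edgeR, log2 fold-change 1.05, SE 0.24). CD JZL184 mouse E was far above the other treated mice, and without it the log2 fold-change was 0.60 (edgeR adjusted p = 0.0184). Ppp1r9a, an actin-binding scaffold of protein phosphatase, had 14.6, 14.6 and 13.9 CPM in CD VEH and 28.2, 21.8 and 24.3 CPM in CD JZL184 (adjusted p = 0.00222 by edgeR, log2 fold-change 0.78, SE 0.10). Mylk4, a kinase of the myosin light chain kinase family, had 65.1, 113 and 82.4 CPM and 154, 146 and 145 CPM (log2 fold-change 0.77, SE 0.15). The treated mice lay close together in Mylk4, while the controls were spread. Prune2 (log2 fold-change 0.74), the ephrin receptor gene Epha4 (0.72), 1110002E22Rik (0.72), the mitochondrial folate enzyme gene Aldh1l2 (0.74) and the DNA polymerase gene Polq (0.75) completed the 8 highest. Of these 8 genes only Polq lost its call with a mouse left out, without CD VEH mouse A (edgeR adjusted p = 0.0512).

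**Figure D1:**
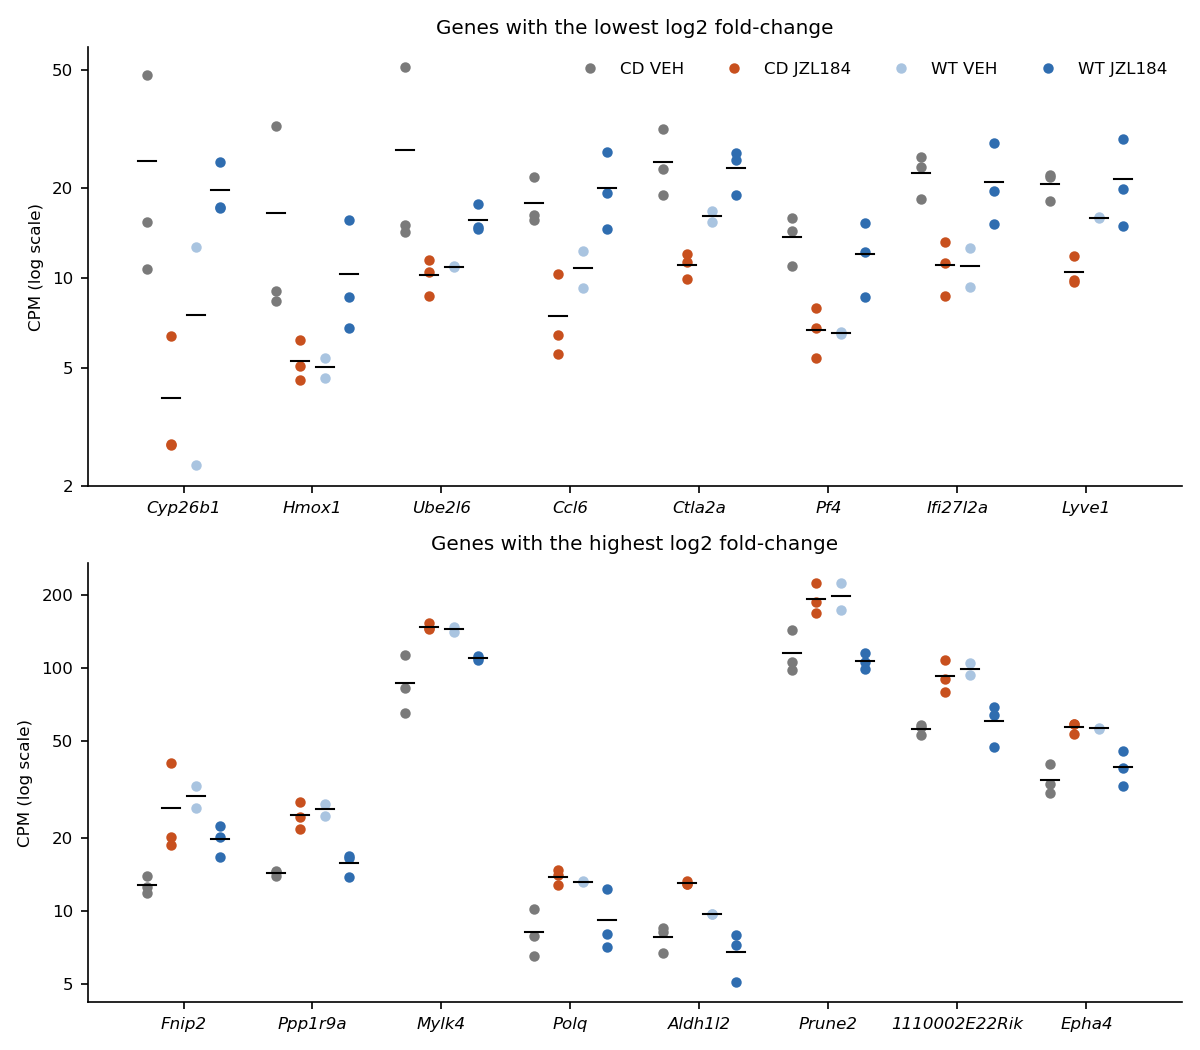
Expression in CPM (log scale) of the 8 genes with the lowest and the 8 with the highest log2 fold-change in CD JZL184 against CD VEH, among DEGs of at least 10 CPM chosen to have no overlap between these groups. Each point is a mouse and each bar a group mean, and single high mice stand apart for Cyp26b1, Hmox1, Ube2l6 and Fnip2.

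The DEGs with the lowest p-values had smaller but tighter changes, all with an edgeR adjusted p of 0.00222. Cav2, which encodes a caveolin abundant in endothelium, had 69.4, 62.6 and 68.3 CPM in CD VEH and 41.2, 44.8 and 41.3 CPM in CD JZL184 (-0.65 as log2 fold-change, SE 0.06). Hey1, a Notch target gene, had 11.5, 9.86 and 10.9 CPM and 6.13, 5.49 and 5.90 CPM (log2 fold-change -0.88, SE 0.09). Every treated mouse lay below every control in both genes, a separation that the choice by lowest p-value favours. The annexin gene Anxa3 (log2 fold-change -0.75), the uncharacterized 1810022K09Rik (-0.68) and the endothelial surface gene Ly6c1 (-0.61) were the others that fell. The 5 that rose were Dvl3, a transducer of Wnt signals (0.60), Jmy, a nucleator of actin filaments (0.57), Kcnd3, a potassium channel of the transient outward current (0.63), the oxysterol-binding gene Osbp (0.56) and Prob1 (0.51). All 10 genes stayed DEGs with any CD mouse left out.

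The target of the drug and its pathway were described next. Of the 14 tested endocannabinoid genes, 3 were downregulated and 1 was upregulated, with a median log2 fold-change of -0.09 (21.4% and 7.14% of the list, against 15.6% and 15.9% of all genes). A count of this size is near that background. Mgll itself had 148, 165 and 143 CPM in CD VEH and 104, 135 and 107 CPM in CD JZL184 (adjusted p = 0.0295 by edgeR, log2 fold-change -0.40, SE 0.12). The treated mice lay below the controls, with CD JZL184 mouse C nearest to them, but the call was lost without any of the 6 mice other than that one (highest edgeR adjusted p 0.108). Fabp5, which encodes a carrier of endocannabinoids and fatty acids, had 46.9, 32.9 and 50 CPM and 22.0, 29.9 and 25.7 CPM (adjusted p = 0.00679 by edgeR, log2 fold-change -0.74, SE 0.16), and it was the only member called in each of the 6 runs with a mouse left out. Cnrip1, encoding a protein that binds the tail of CB1, had a log2 fold-change of -0.60, and Napepld, encoding the enzyme that makes anandamide precursors into anandamide, one of 0.22. Cnrip1 lost its call without 4 of the 6 mice and Napepld without each of them, and without CD JZL184 mouse E or CD VEH mouse A or E 1 member was downregulated.

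The enzymes on either side of MAGL in this pathway did not pass the test. Dagla and Daglb, which make 2-arachidonoylglycerol, had log2 fold-changes of 0.15 and 0.06 (edgeR adjusted p = 0.388 and 0.679), and the alternative hydrolases Abhd6 and Abhd12 had -0.09 and 0.00 (0.556 and 0.987). The receptor genes were below the expression limit and were not tested. Cnr1 lay between 0 and 0.0408 CPM in the 6 CD mice, around or below the level of 3 counts. Cnr2 had 0.913, 0.686 and 0.562 CPM in CD VEH and 0.657, 0.796 and 0.678 CPM in CD JZL184, so that the groups overlapped.

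Among the 25 tested genes of arachidonate and eicosanoid metabolism, 8 were downregulated and 1 was upregulated (32% and 4%, against 15.6% and 15.9% of all genes), and their median log2 fold-change was -0.20 against -0.00286 over all genes tested. Ptgs1, the constitutive cyclooxygenase, had 7.61, 7.37 and 7.35 CPM in CD VEH and 4.22, 4.84 and 4.83 CPM in CD JZL184 (adjusted p = 0.0105 by edgeR, log2 fold-change -0.68, SE 0.16). The leukotriene genes Ltc4s and Alox5ap had log2 fold-changes of -1.05 and -0.68, the latter without a call when CD VEH mouse A or E was left out. Ephx2, the soluble epoxide hydrolase that inactivates epoxides of arachidonic acid, was the member that rose, from 158, 190 and 161 CPM to 225, 236 and 211 CPM (adjusted p = 0.00507 by edgeR, log2 fold-change 0.40, SE 0.08). The downregulated members numbered 4 and 5 without CD JZL184 mouse A and E, and 3 without CD VEH mouse A or E.

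Of the 45 tested genes of the sarcomere, Z-disc and myofibril assembly, 21 were upregulated (46.7%, against 15.9% of all genes) and 3 were downregulated (6.67%, against 15.6%), with a median log2 fold-change of 0.37. Sarcomeres are the contractile units of the myofibril. Myh7, the slow myosin heavy chain that rises in hypertrophy, had 104, 120 and 78.0 CPM in CD VEH and 175, 153 and 166 CPM in CD JZL184 (adjusted p = 0.0120 by edgeR, log2 fold-change 0.71, SE 0.18). The adult heavy chain Myh6 had 9875, 12900 and 10570 CPM and 14940, 14770 and 16040 CPM (adjusted p = 0.0310 by edgeR, log2 fold-change 0.46, SE 0.14), but its call was lost without any mouse other than CD VEH mouse C (highest edgeR adjusted p 0.113). Both myosins were therefore higher in each treated mouse than in each control, and the groups were apart, in either direction, in 53.1% of all tested genes. The filamin gene Flnc (log2 fold-change 0.64) and the Z-disc gene Actn2 (0.42) also rose.

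The members that fell encode small proteins. Myl2, the ventricular regulatory light chain, had 7860, 7298 and 7864 CPM in CD VEH and 6327, 5869 and 5939 CPM in CD JZL184 (adjusted p = 0.0212 by edgeR, log2 fold-change -0.34, SE 0.10). The calsarcin gene Myoz2 and the mechanosensor gene Csrp3 had log2 fold-changes of -0.40 and -0.29, and Myl2 and Csrp3 lost their calls without 4 of the 6 mice each. Ttn, the giant spring of the sarcomere, had 1445, 1982 and 1442 CPM and 3388, 1863 and 2626 CPM (adjusted p = 0.0687 by edgeR, log2 fold-change 0.69, SE 0.27), so that the groups overlapped. It was called in a model of the 6 CD mice alone (edgeR adjusted p = 0.0304) and without CD JZL184 mouse C (0.0366), and its log2 fold-change was 0.05 with the offset for gene length (0.809). The troponin gene Tnnt2 (0.09) and the light chain gene Myl3 (0.00) did not pass the test. The number of upregulated members was 11 without CD VEH mouse A or E and 12 without CD JZL184 mouse E.

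Of 29 tested calcium handling genes, 12 were upregulated (41.4%, against 15.9% of all genes) and 4 were downregulated (13.8%, near the 15.6% of all genes). Atp2a2, the pump that refills the sarcoplasmic reticulum, had 7259, 8624 and 7521 CPM in CD VEH and 10650, 11150 and 11380 CPM in CD JZL184 (adjusted p = 0.00574 by edgeR, log2 fold-change 0.50, SE 0.10). The sodium-calcium exchanger Slc8a1 (log2 fold-change 0.71), the L-type channel Cacna1c (0.64) and the release channel Ryr2 (0.64) rose as well, Ryr2 without a call when CD VEH mouse A or E was left out. Phospholamban (Pln), which restrains the pump, had overlapping groups and a log2 fold-change of -0.02 (edgeR adjusted p = 0.887), and calmodulin gene Calm2 and sorcin gene Sri fell (-0.43 and -0.42). The 4 downregulated members became 2 without any mouse other than CD VEH mouse C.

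Of 36 tested sodium, potassium and gap junction channel genes, 19 were upregulated (52.8%, against 15.9% of all genes) and 5 were downregulated (13.9%, near the 15.6% of all genes). Kcnq1 of the slow delayed rectifier (log2 fold-change 0.46) and Kcnj11, the pore of the cardiomyocyte KATP channel (0.38), rose, while Kcnj8, the KATP pore of vascular cells, fell from 49.7, 41.4 and 42.1 CPM to 31.3, 32.3 and 33.3 CPM (-0.46). Connexin 43 (Gja1) had a log2 fold-change of 0.40 and the endothelial connexin Gja4 one of -0.54, and they lost their calls without 4 and 5 of the 6 mice. The number of upregulated channel genes was 12 without CD JZL184 mouse E, 10 without CD VEH mouse A and 8 without CD VEH mouse E, and that of downregulated ones 2 or 3 without any mouse other than CD VEH mouse C.

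Of the 39 functional lists, cardiac transcription factors had the highest share of upregulated members, 15 of 24 (62.5%, against 15.9% of all genes), with 1 downregulated (4.17%) and a median log2 fold-change of 0.34. Tead1, an effector of Hippo signalling, had 102, 125 and 111 CPM in CD VEH and 175, 178 and 171 CPM in CD JZL184 (adjusted p = 0.00222 by edgeR, log2 fold-change 0.63, SE 0.08). Myocd, the myocardin coactivator, rose from 24.7, 26.5 and 26.8 CPM to 39.4, 38.4 and 43.6 CPM (0.64), and Gata4 and Nkx2-5, which specify cardiac muscle, rose by smaller amounts (0.34 and 0.30). Every treated mouse exceeded every control in these 4 genes, and the groups were apart, in either direction, in 53.1% of all tested genes. Tbx3, a repressor that marks the conduction system, was the member that fell (-0.45). With a mouse left out, 12 to 14 of the 24 were upregulated.

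The natriuretic peptides, skeletal actin and Ankrd1, which rise in pathological growth as Myh7 does, did not pass the test. The natriuretic peptide gene Nppa had 49.0, 91.7 and 146 CPM in CD VEH and 125, 106 and 72.8 CPM in CD JZL184 (0.08 as log2 fold-change, edgeR adjusted p = 0.868), and Nppb had a log2 fold-change of -0.03 (0.954). Skeletal actin (Acta1) and the stretch-induced Ankrd1 also overlapped between groups (0.15 and 0.15, edgeR adjusted p = 0.750 and 0.437). The 8 upregulated genes of this list of 28 (28.6%, with 3.57% downregulated, against 15.9% and 15.6% of all genes) included Hdac4, a repressor of growth genes (0.42), and Corin, the protease that activates atrial natriuretic peptide (0.39). The matricellular gene Postn was the member downregulated (-0.61). The 8 became 5 without any one of the CD JZL184 mice, 4 without CD VEH mouse A and 2 without CD VEH mouse E, and Postn lost its call without 4 mice and Corin without CD JZL184 mouse A or CD VEH mouse A or E.

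Fuel use in the heart is set largely by PPAR receptors, which switch on genes of fatty acid oxidation. Of 19 tested PPAR and coactivator genes, 10 were upregulated and 1 was downregulated (52.6% and 5.26%, against 15.9% and 15.6% of all genes). Ppara, the receptor that drives fatty acid oxidation, had 23.4, 24.8 and 21.7 CPM in CD VEH and 37.4, 34.1 and 39.9 CPM in CD JZL184 (adjusted p = 0.00248 by edgeR, log2 fold-change 0.67, SE 0.11), whereas Pparg, the adipogenic receptor, fell (-0.41), a call lost without CD JZL184 mouse E or CD VEH mouse A. Of 27 genes of mitochondrial fatty acid oxidation, 7 were upregulated (25.9%) and 1 was downregulated (3.70%), the former including Acacb, whose product makes malonyl-CoA (0.51), and Cpt1b, the carnitine transferase that malonyl-CoA inhibits (0.35). Without CD VEH mouse C this number was 11, without CD JZL184 mouse A or E 4, and without CD JZL184 mouse C or CD VEH mouse A or E 3. For the PPAR list it was 6 without CD JZL184 mouse C or CD VEH mouse A, and 5 without CD VEH mouse E.

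Fatty acids reach the myocyte from triglycerides that are split in the capillary. Lpl, the lipase that cardiomyocytes release, had 2730, 3160 and 2868 CPM in CD VEH and 3862, 3890 and 3940 CPM in CD JZL184 (adjusted p = 0.00719 by edgeR, log2 fold-change 0.42, SE 0.09). Gpihbp1, the endothelial protein that carries this lipase to the capillary lumen, had 80.9, 80.5 and 80.0 CPM and 51.4, 52.1 and 47.5 CPM (adjusted p = 0.00335 by edgeR, log2 fold-change -0.68, SE 0.12). Neither gene had overlapping groups, as was the case for 53.1% of all tested genes. The list of 26 held 4 upregulated and 4 downregulated genes (15.4% each, near the shares of all genes), and the fatty acid transporter Cd36 was not among them (-0.12, edgeR adjusted p = 0.269). Of 37 genes of glucose use, 10 were upregulated (27.0%) and 2 were downregulated (5.41%), the former including glycogen synthase Gys1 (0.56) and the insulin-regulated transporter Slc2a4 (0.27), which lost its call without 4 of the 6 mice. Without CD VEH mouse C, 7 uptake genes were upregulated, and the 10 genes of glucose use became 6 without CD JZL184 mouse E, 2 without CD VEH mouse A and 3 without CD VEH mouse E. The 2 downregulated ones became 0 without CD JZL184 mouse E or CD VEH mouse E, and 1 without CD JZL184 mouse A or C or CD VEH mouse A.

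In the AMPK, folliculin and mTORC1 list, 15 of 40 genes were upregulated (37.5%, against 15.9% of all genes) and 3 were downregulated (7.50%, against 15.6%). Prkaa2, the catalytic AMPK subunit of muscle, had 85.03, 97.4 and 82.3 CPM in CD VEH and 138, 128 and 139 CPM in CD JZL184 (adjusted p = 0.00248 by edgeR, log2 fold-change 0.61, SE 0.10), while the other catalytic subunit Prkaa1 had overlapping groups (-0.01). Mtor, the kinase itself, had a log2 fold-change of 0.41. The 3 that fell, Lamtor5, Lamtor4 and Lamtor2 (-0.34, -0.32 and -0.18), encode parts of the complex that holds mTORC1 on lysosomes, and none of them was called with an offset for gene length, under which the log2 fold-changes were -0.06, -0.07 and 0.15 (edgeR adjusted p = 0.465, 0.290 and 0.0724). The upregulated members numbered 8 when CD VEH mouse E was left out.

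Of 53 tested receptor, G protein and cyclic AMP genes, 14 were upregulated (26.4%, against 15.9% of all genes) and 15 were downregulated (28.3%, against 15.6%). The muscarinic receptor gene Chrm2, which slows the heart, had 69.5, 70.9 and 65.3 CPM in CD VEH and 112, 94.2 and 92.2 CPM in CD JZL184 (adjusted p = 0.00419 by edgeR, log2 fold-change 0.53, SE 0.10). The adenylyl cyclases of cardiomyocytes, Adcy5 (0.39) and Adcy6 (0.45), and Adcy9 (0.56) rose too. Rgs5, a regulator of G protein signalling in pericytes, fell from 757, 642 and 640 CPM to 452, 449 and 458 CPM (-0.59), as did the G protein subunit genes Gng11 (-0.78) and Gngt2 (-0.74). The beta-adrenergic receptor gene Adrb1 did not pass the test (0.26, edgeR adjusted p = 0.116), but was called in a model of the 6 CD mice alone (0.0380). The 15 downregulated members became 9 without CD JZL184 mouse A or CD VEH mouse E.

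Cell types were described by markers. Of 12 endothelial markers, 10 were downregulated (83.3%, against 15.6% of all genes) and none was upregulated, and their summed level was 1605, 1419 and 1575 CPM in CD VEH and 1038, 1163 and 1090 CPM in CD JZL184. Of 14 macrophage markers, 10 were downregulated (71.4%) and none was upregulated, and their sum was 480, 433 and 558 CPM and 294, 339 and 311 CPM. The groups did not overlap in either sum. Pecam1, an adhesion molecule of endothelial junctions, had a log2 fold-change of -0.43, and C1qa, a complement gene of macrophages, one of -0.84. Kdr, the main VEGF receptor, did not pass the test (-0.17, edgeR adjusted p = 0.152).

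Of 10 fibroblast markers, 4 were downregulated (40%, against 15.6% of all genes) and none was upregulated (sums 1759 to 2005 CPM in CD VEH and 1462 to 1695 CPM in CD JZL184), and of 8 pericyte markers 4 were downregulated (50%) and 1 was upregulated (12.5%, near the 15.9% of all genes, sums 997 to 1159 and 854 to 898 CPM). Most of the pericyte sum was Rgs5 (log2 fold-change -0.59), without which the groups overlapped. Abcc9 rose (0.34), and Pdgfrb, Notch3 and Cspg4 did not pass the test. Of 10 ventricular cardiomyocyte markers, 3 were upregulated (30%) and 1 was downregulated (10%, a share below that of all genes), and their sum was 40620 to 44010 CPM in CD VEH and 45230 to 46820 CPM in CD JZL184. The gap in this sum rested on Myh6 (log2 fold-change 0.46), without which the groups overlapped. The sum of the smooth muscle cell markers was higher in CD JZL184 (1184 to 1205 CPM) than in CD VEH (1024 to 1149 CPM), and most of it was desmin (Des), also a cardiomyocyte gene, while 2 of 6 tested members were downregulated (33.3%) and 1 was upregulated (16.7%, near the share of all genes). The sums of atrial, lymphatic endothelial, Schwann cell and neuron, skeletal muscle, neutrophil, epicardial and T and NK cell markers overlapped between the groups. None of the 8 T and NK cell markers reached the expression limit, and 1 of the 6 B cell markers did. Sums were lower in CD JZL184, without overlap, for B cell (7.20 to 8.12 against 8.83 to 12.7 CPM), endocardial (40.2 to 58.5 against 64.4 to 84.7 CPM) and brown adipocyte markers (510 to 538 against 583 to 659 CPM), in which Ucp1 was at or near 0, and for platelet markers (1.45 to 2.83 against 3.02 to 10.7 CPM). Of their tested members, Cox7a1, a muscle respiratory chain gene also found in brown fat, and the platelet gene Ppbp (-1.68) were called. Ppbp lost its call without CD VEH mouse A (log2 fold-change -0.72) or any CD JZL184 mouse, and the platelet sum of CD VEH mouse A was 10.7 CPM against 3.02 and 3.19 CPM in the other controls. The white adipocyte sum was 406 to 478 CPM in CD VEH and 264 to 306 CPM in CD JZL184, which rested on Fabp4, also made by endothelium, because the other 6 markers were below the limit. The part of these cell type markers in the gene lists was not tested.

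**Figure D2:**
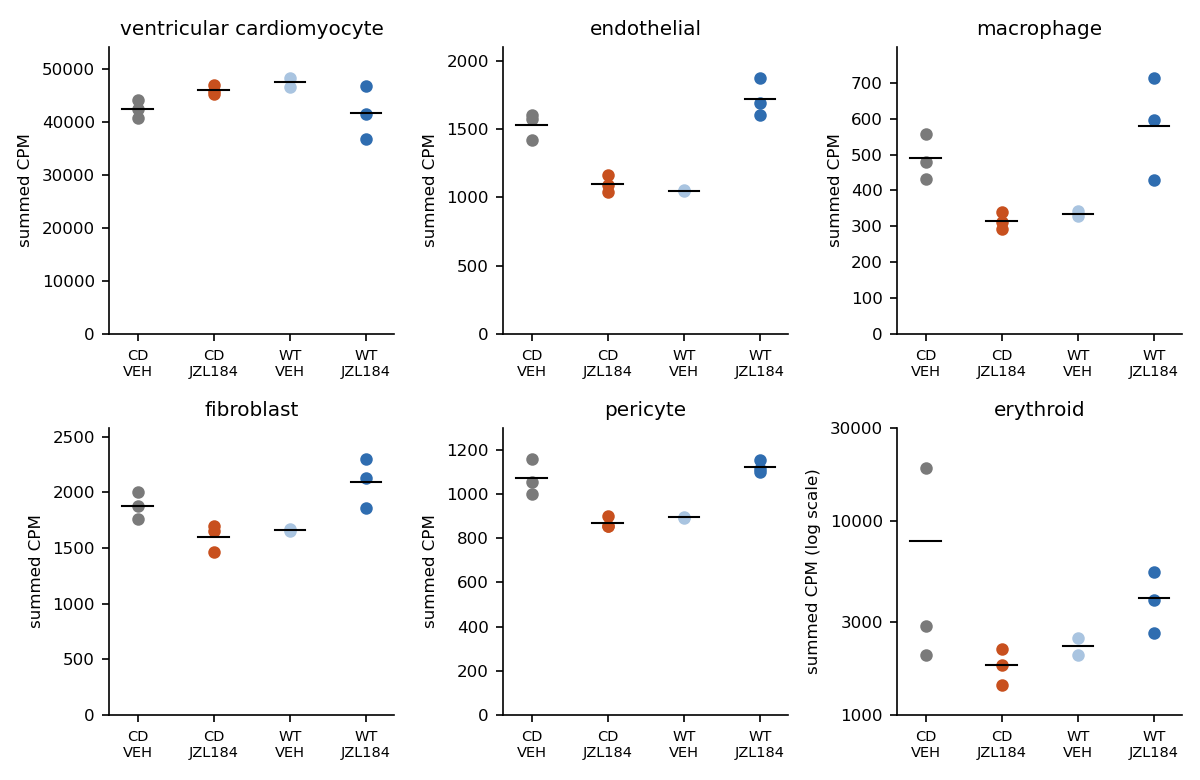
Summed CPM of 6 marker lists in each mouse (points) with the group mean (bar), with the axis of the erythroid panel on a log scale. Endothelial, macrophage, fibroblast and pericyte sums are lower in every CD JZL184 mouse than in every CD VEH mouse, the ventricular cardiomyocyte sum is higher, and CD VEH mouse A stands apart for the erythroid sum (18770 CPM). The pericyte gap rests on Rgs5 and the ventricular cardiomyocyte gap on Myh6.

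All 6 erythroid genes were called downregulated, with a median log2 fold-change of -2.17, but their groups overlapped. Their sum was 18770, 2879 and 2026 CPM in CD VEH and 1421, 2196 and 1813 CPM in CD JZL184. The beta-globin gene Hbb-bs had 8994 CPM in CD VEH mouse A against 1260 and 933 CPM in the other controls. Without that mouse its log2 fold-change was -0.40 (edgeR adjusted p = 0.293), and none of the 6 genes was called. The calls of the alpha-globin genes Hba-a1 and Hba-a2 were likewise lost (edgeR adjusted p = 0.227 and 0.244), and these near-identical copies share reads. The erythroid calls were also lost without any of the CD JZL184 mice.

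Of 28 genes of smooth muscle contraction, 17 were downregulated (60.7%, against 15.6% of all genes) and 4 were upregulated (14.3%, near the 15.9% of all genes), with a median log2 fold-change of -0.41. Myl9, the smooth muscle regulatory light chain, had 20.6, 17.8 and 16.1 CPM in CD VEH and 10.1, 10.3 and 9.003 CPM in CD JZL184 (adjusted p = 0.00247 by edgeR, log2 fold-change -0.89, SE 0.13). Transgelin (Tagln), an actin-binding protein, had 18.2, 19.0 and 15.6 CPM and 9.92, 11.01 and 8.42 CPM (-0.84), and the smooth muscle myosin Myh11 had a log2 fold-change of -0.65, lost without CD JZL184 mouse E or CD VEH mouse A or C. Acta2, smooth muscle actin, had overlapping groups (-0.40, edgeR adjusted p = 0.0952). Among the members that rose was the vinculin gene Vcl (0.38), which is also found in cardiomyocyte attachments and lost its call without CD JZL184 mouse E. With a mouse left out, 12 to 16 members were downregulated, and the 4 upregulated became 1 without CD JZL184 mouse E.

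The promoters of these genes were searched for the CArG box, the site of serum response factor, with which the smooth muscle coactivator myocardin acts. RefSeq promoters (GRCm38.p6, 250 bases before the gene start, both strands) were held for 24 of the 28 genes. A CArG box stood in 3 of the 15 downregulated genes with a promoter, 1 of 3 upregulated and 0 of 6 others, and in 1.40% of the 9565 tested genes with a promoter. The windows of Myl9 (chr2:156775214-156775463, plus strand) and Cnn2 (chr10:79988350-79988599, plus strand, log2 fold-change -0.32) are shown 5′ to 3′ with the CArG box in capitals, because both genes fell and carry it.
Myl9: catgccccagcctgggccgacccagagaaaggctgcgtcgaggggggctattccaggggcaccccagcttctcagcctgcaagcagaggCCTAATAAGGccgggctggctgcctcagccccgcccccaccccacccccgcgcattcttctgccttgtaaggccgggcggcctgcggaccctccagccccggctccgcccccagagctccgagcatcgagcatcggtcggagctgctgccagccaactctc
Cnn2: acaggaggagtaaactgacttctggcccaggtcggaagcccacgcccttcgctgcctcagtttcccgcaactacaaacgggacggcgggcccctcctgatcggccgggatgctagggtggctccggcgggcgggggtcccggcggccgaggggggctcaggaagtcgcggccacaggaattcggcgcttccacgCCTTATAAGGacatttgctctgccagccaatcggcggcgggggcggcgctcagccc
The match begins 161 bases before the gene start in Myl9 and 56 bases before it in Cnn2, and these matches are letters in a window, not sites shown to be bound.

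Interferons induce a set of antiviral genes, of which 23 of 39 were downregulated (59.0%, against 15.6% of all genes) and 0 were upregulated, with a median log2 fold-change of -0.47. Isg15, a ubiquitin-like protein, had 9.62, 5.55 and 7.73 CPM in CD VEH and 2.90, 4.76 and 4.31 CPM in CD JZL184 (adjusted p = 0.00866 by edgeR, log2 fold-change -0.93, SE 0.21). Ifitm3, which blocks the entry of viruses, had 60.0, 50.2 and 62.9 CPM and 27.5, 38.7 and 34.7 CPM (-0.78). Irf7, a transcription factor that amplifies interferon production, had overlapping groups and missed the threshold (-0.47, edgeR adjusted p = 0.0543). It was called in 5 of 15 alternatives, among them DESeq2 and the run without CD JZL184 mouse C (-0.70, edgeR adjusted p = 0.0100). The downregulated members were 13 without CD JZL184 mouse A or E or CD VEH mouse E, and 15 without CD VEH mouse A. Macrophage and endothelial marker sums moved in the same direction, and their part in this list was not tested.

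The interferon response element (ISRE, searched on both strands as GAAA, any 2 bases and GAAA again, with overlapping matches counted) stood in the 250 bases before the start of 14 of the 29 listed genes with a RefSeq promoter (48.3%), against 3.17% of tested genes. Among them it was in 7 of 20 downregulated genes and in 7 of 9 genes that were not DEGs. Isg15 (chr4:156200819-156201068, minus strand) and Ifit1 (chr19:34640639-34640888, plus strand, log2 fold-change -0.56) are shown 5′ to 3′ with the element in capitals, as examples from the 7 downregulated genes that carry it. Gbp3, Ifitm2, Gbp7 and Gbp2 carry it nearer to the gene start.
Isg15: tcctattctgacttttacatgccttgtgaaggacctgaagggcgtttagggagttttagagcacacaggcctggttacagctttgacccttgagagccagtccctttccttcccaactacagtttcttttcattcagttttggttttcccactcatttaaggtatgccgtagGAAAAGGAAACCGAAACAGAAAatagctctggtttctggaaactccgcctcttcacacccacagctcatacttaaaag
Ifit1: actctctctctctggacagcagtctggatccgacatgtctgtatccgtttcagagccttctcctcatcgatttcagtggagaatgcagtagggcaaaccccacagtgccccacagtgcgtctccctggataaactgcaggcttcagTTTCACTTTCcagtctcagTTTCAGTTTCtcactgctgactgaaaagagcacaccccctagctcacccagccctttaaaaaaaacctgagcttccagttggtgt
Isg15 holds 3 overlapping matches, the first 78 bases before the gene start, and Ifit1 holds 2 separate ones, at 104 and 85 bases.

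Of 20 tested chemokine and cytokine genes, 12 were downregulated (60% of the list, against 15.6% of all genes), among them Ccl9 (12.7, 11.1 and 16.8 CPM in CD VEH, 5.01, 7.46 and 4.37 CPM in CD JZL184, or -1.27 as log2 fold-change) and the monocyte attractant Ccl7 (-1.27). Of 17 genes of MHC class I and the immunoproteasome, 7 were downregulated (41.2%), led by B2m, the light chain of class I molecules, which fell from 216, 203 and 242 CPM to 120, 165 and 147 CPM (-0.61). Of 10 MHC class II genes, 3 were downregulated (30%), of which Ifi30 (-0.75), a lysosomal thiol reductase, kept its call with any mouse left out. The chemokine genes numbered 5 and 6 without CD JZL184 mouse A and E. The class I genes numbered 2 without CD JZL184 mouse A or CD VEH mouse E, 3 without CD JZL184 mouse E or CD VEH mouse A, and 1 with an offset for gene length, and the class II genes 1 without CD JZL184 mouse A or E or CD VEH mouse E.

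In the vessel wall pathways, Id1, Id3 and Id2, which encode inhibitors of differentiation induced by BMP signals, had the lowest log2 fold-changes of 28 TGF-beta and BMP genes. Id1 had 41.9, 30.4 and 39.5 CPM in CD VEH and 21.2, 18.5 and 18.7 CPM in CD JZL184 (adjusted p = 0.00228 by edgeR, log2 fold-change -0.94, SE 0.13), and Id3 and Id2 followed with -0.85 and -0.72. In all, 8 genes of this list were downregulated (28.6%, against 15.6% of all genes), 5 without CD JZL184 mouse A or CD VEH mouse A or E. Upregulated were 2 (7.14%, against 15.9%), which became 0 without CD JZL184 mouse A or CD VEH mouse E and 1 without CD JZL184 mouse E or CD VEH mouse C. Of 30 VEGF and Notch genes, 10 were downregulated (33.3%) and 3 were upregulated (10%), with Vegfa (0.39) and Hif1a (0.44) among the latter, and without any mouse other than CD JZL184 mouse C, 1 was upregulated and Vegfa was not. Of 12 retinoid genes, 6 were downregulated (50% of the list), and 3 without CD VEH mouse E. Rbp7, a retinol-binding protein of endothelium, had 16.6, 16.4 and 15.3 CPM and 9.999, 9.20 and 6.24 CPM (-0.92).

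Of 30 collagen and fibroblast matrix genes, 8 were downregulated (26.7%, against 15.6% of all genes) and 0 were upregulated, and no collagen chain was among the 8. Col1a1 had a log2 fold-change of 0.06 (edgeR adjusted p = 0.779) and Col3a1 one of -0.21 (0.250), both with overlapping groups, whereas Sparc, a collagen-binding glycoprotein, had -0.64, lost without CD VEH mouse E. Elastin (Eln), which lies in the deleted interval, had 15.7, 21.6 and 26.4 CPM in CD VEH and 12.03, 17.9 and 16.9 CPM in CD JZL184 (-0.44, edgeR adjusted p = 0.0872), and it was called by DESeq2 and without CD VEH mouse A (-0.62, edgeR adjusted p = 0.0330). Of 19 elastic fibre genes, 2 were downregulated (10.5%), Mfap5 (-0.81) and Efemp2 (-0.46). The 8 matrix genes became 5 without CD JZL184 mouse A, 4 without CD JZL184 mouse E or CD VEH mouse A and 3 without CD VEH mouse E, and the 2 elastic fibre genes 1 without either CD JZL184 mouse A or E and 0 without CD VEH mouse E. Of the 14 tested genes of the deleted interval, whose median log2 fold-change was 0.04, 4 were upregulated and 1 was downregulated, against 15.9% and 15.6% of all genes. Gtf2i (0.31) and the chromatin remodeller gene Baz1b (0.34) were upregulated with Gtf2ird1 and Dnajc30, and Clip2 was downregulated (-0.39).

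Ribosomal and respiratory chain proteins are encoded by many short, abundant mRNAs. Of 83 cytoplasmic ribosomal protein genes, 79 were downregulated (95.2%, against 15.6% of all genes) and 0 were upregulated, with a median log2 fold-change of -0.50, and 72 to 79 were downregulated with a mouse left out. Rps6 had 318, 263 and 291 CPM in CD VEH and 221, 220 and 217 CPM in CD JZL184 (adjusted p = 0.0045 by edgeR, log2 fold-change -0.41, SE 0.08), which was -0.19 with the length offset described further on (edgeR adjusted p = 0.0558), and ribosomal protein genes can share reads with processed pseudogenes. The exceptions were Rps27, Fau, Rpl7l1 and Rpl3l, the last of them a form specific to striated muscle. Of 83 nuclear genes of the respiratory chain, 54 were downregulated (65.1%) and 2 were upregulated (2.41%), and of 78 mitochondrial ribosomal protein genes 23 were downregulated (29.5%). Cox7b, a subunit of cytochrome c oxidase, fell from 673, 557 and 663 CPM to 448, 440 and 422 CPM (-0.53). The respiratory chain genes numbered 34 without CD JZL184 mouse E and 35 without CD VEH mouse E, and the mitochondrial ribosomal genes 14, 12, 15 and 11 without CD JZL184 mouse A or E and CD VEH mouse A or E in that order.

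Of the 13 mRNAs of the mitochondrial genome, 8 were downregulated (61.5%, against 15.6% of all genes) and all 13 had log2 fold-changes below 0 (median -0.30). The complex I gene mt-Nd3 had 6384, 5462 and 5312 CPM in CD VEH and 3857, 3480 and 3026 CPM in CD JZL184 (adjusted p = 0.0028 by edgeR, log2 fold-change -0.73, SE 0.12), and mt-Co3 had a log2 fold-change of -0.51. Citrate synthase (Cs), a nuclear gene used as a measure of mitochondrial content, had instead a log2 fold-change of 0.33, with the groups apart, lost without any mouse but CD VEH mouse C. With a mouse left out, the mitochondrial mRNAs numbered 4 without CD JZL184 mouse C or E or CD VEH mouse E, 3 without CD VEH mouse A and 5 without CD VEH mouse C.

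**Figure D3:**
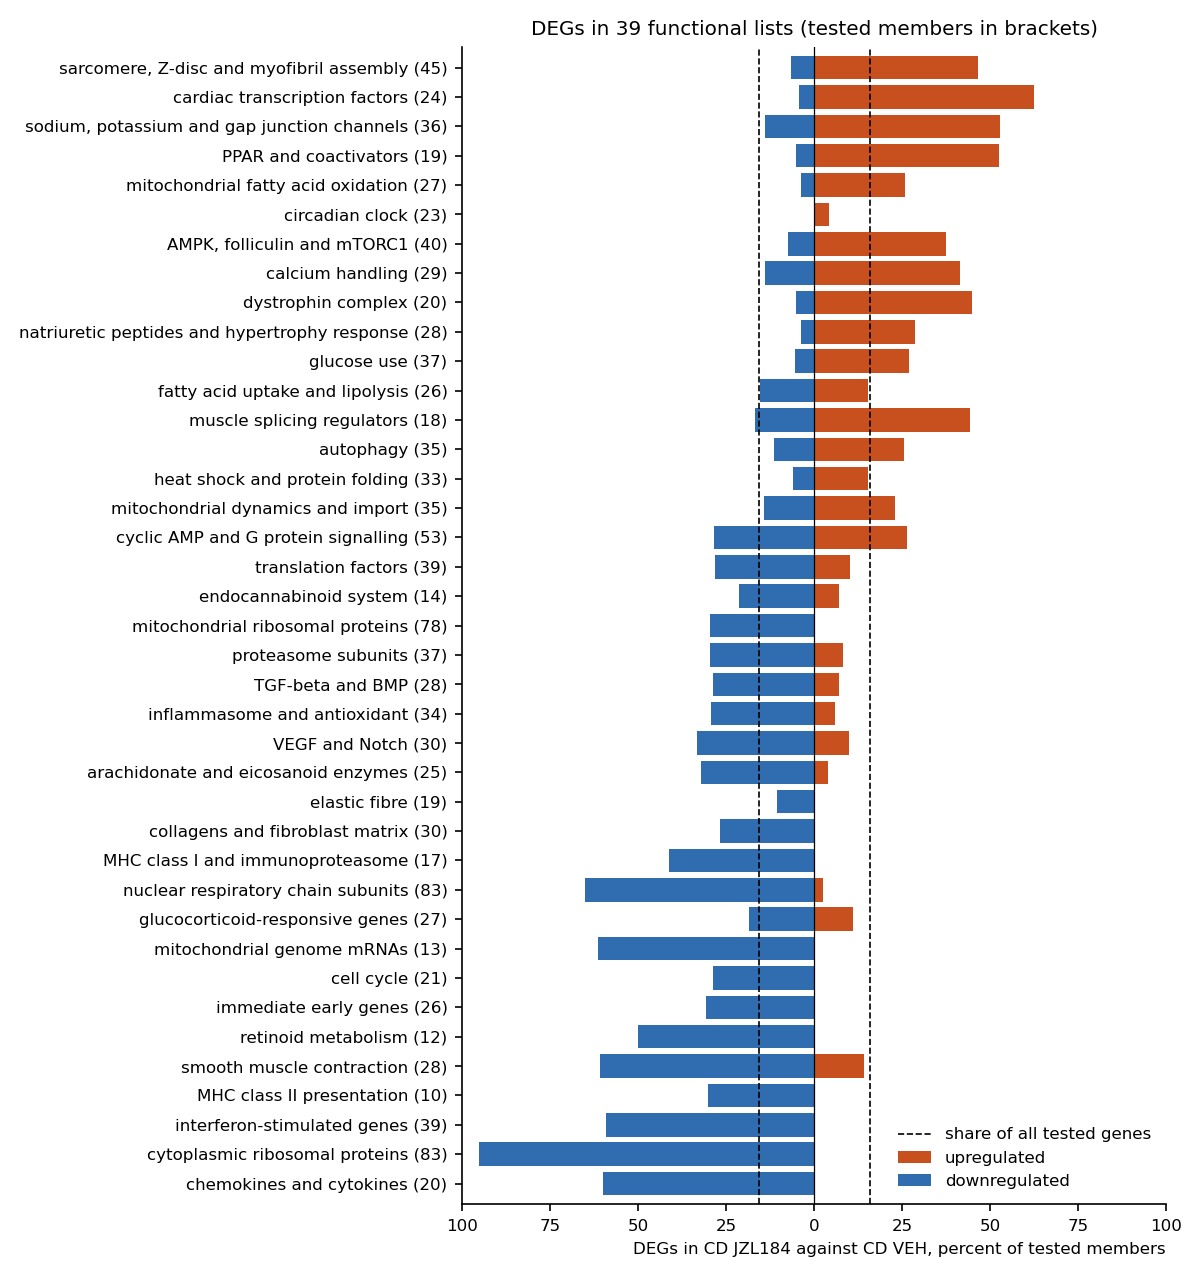
Share of the tested members of 39 functional lists that were upregulated (orange, right) or downregulated (blue, left) in CD JZL184 against CD VEH, ordered by median log2 fold-change, with dashed lines at the shares of all tested genes (15.9% up, 15.6% down). Cytoplasmic ribosomal proteins reach 95.2% downregulated and cardiac transcription factors 62.5% upregulated.

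Of 23 circadian clock genes, 1 was upregulated (4.35%, against 15.9% of all genes) and 0 were downregulated by edgeR (against 15.6% of all genes). Downward, 1 had an unadjusted p-value under 0.05 by edgeR and 0 were called by DESeq2. The upregulated member was Rora (0.34), a call lost without CD JZL184 mouse A or E or CD VEH mouse E. Without CD VEH mouse C 3 clock genes were upregulated, and Dbp, a clock output gene, ranged from 8.01 to 26.9 CPM among the controls. Of 26 immediate early genes, 8 were downregulated (30.8%, against 15.6% of all genes), including Ier2 (-0.81), while Fos and Egr1 had overlapping groups (-0.52 and -0.62, edgeR adjusted p = 0.386 and 0.298), and 5 were downregulated without CD VEH mouse A. Of 27 glucocorticoid-responsive genes, 3 were upregulated and 5 were downregulated (11.1% and 18.5%, near the shares of all genes). Sgk1, a kinase that hormones induce, fell from 62.5, 61.2 and 65.8 CPM to 33.6, 37.4 and 31.0 CPM (-0.89), but Fkbp5, a standard readout of glucocorticoids, did not pass the test (-0.32, edgeR adjusted p = 0.260). The 5 downregulated genes became 3 without CD VEH mouse A. Of 35 autophagy genes, 9 were upregulated (25.7%, against 15.9% of all genes) and 4 were downregulated (11.4%, against 15.6%), the 9 becoming 4 without CD VEH mouse A and 5 without CD VEH mouse E, and the 4 becoming 0 or 1 without any mouse other than CD VEH mouse C. Of 33 heat shock and protein folding genes, 5 were upregulated (15.2%, near the share of all genes) and 2 were downregulated (6.06%), the 5 becoming 1 without CD JZL184 mouse A or E or CD VEH mouse A or E and 3 without CD JZL184 mouse C.

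Among the immune, matrix, immediate early, retinoid, cytoplasmic ribosomal and mitochondrial mRNA lists with 0 upregulated members by edgeR, 0 members had an unadjusted p-value under 0.05 upward and 0 were upregulated by DESeq2. For the elastic fibre list these numbers were 2 and 1, and for the mitochondrial ribosomal list 3 and 1.

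Gene length moved with the direction of change. Across the 12141 tested genes with an annotated transcript, Spearman's rho between the log2 fold-change and the longest transcript was 0.415, a description over genes that share libraries. With the genes in 5 bins of length, 2.18% of the shortest (204 to 2051 nt) were upregulated and 35.1% downregulated, and of the longest (5433 to 123179 nt) 35.0% and 4.70%. The median longest transcript was 5037 nt among upregulated and 2311.5 nt among downregulated DEGs, against 3498 nt over all genes. The summed CPM of genes of at least 6000 nt divided by that of genes of at most 2000 nt was 0.445, 0.549 and 0.480 in CD VEH and 0.707, 0.650 and 0.718 in CD JZL184. The median was 3330 nt for the sarcomere list, 4453 nt for the channels, 1094 nt for the cytoplasmic ribosomal and 1005 nt for the respiratory chain genes.

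With an offset for gene length in the model, 1555 genes were upregulated and 1470 were downregulated, of which 1225 and 1196 were DEGs of the same direction without it. Under this offset 20 sarcomere genes and 16 cardiac transcription factors were upregulated, 16 smooth muscle, 19 interferon-stimulated and 9 chemokine genes were downregulated, and their counts without it were 21, 15, 17, 23 and 12. The cytoplasmic ribosomal genes went from 79 to 54 downregulated, the respiratory chain genes from 54 downregulated and 2 upregulated to 12 and 6, and the mitochondrial ribosomal genes from 23 and 0 to 10 and 13. The mitochondrial mRNAs went from 8 to 0. Other counts that moved by over 1.5 times were those of upregulated natriuretic and hypertrophy (8 to 3), splicing (8 to 4), fatty acid oxidation (7 to 11) and proteasome genes (3 to 6), and of downregulated inflammasome and antioxidant (10 to 4), translation factor (11 to 5), proteasome (11 to 2), class I (7 to 1), AMPK and mTORC1 (3 to 0), autophagy (4 to 1), sarcomere (3 to 1), channel (5 to 3), glucose use (2 to 1), heat shock (2 to 1) and mitochondrial import genes (5 to 3). Smaller lists moved likewise, with elastic fibre genes going from 2 to 4 and dystrophin complex genes from 1 to 3 downregulated, and TGF-beta and BMP genes from 2 to 0 upregulated.

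Of 228 named DEGs, 168 kept their call with the length offset. Genes described above that lost it were Myl2 (-0.07), Csrp3 (-0.23), Myh6 (0.35), Ryr2 (0.33), Gja1 (0.38), Gja4 (-0.41), Hdac4 (0.25), Corin (0.33), Napepld (0.20), Rora (0.12), B2m (-0.33), Cox7a1 (-0.00494), mt-Nd3 (-0.25), mt-Co3 (-0.22), Ppbp (-1.45) and the globin genes, the values being log2 fold-changes under the offset. Genes that stayed called with a log2 fold-change over 1.5 times smaller were Pf4 (-0.67), Ifi27l2a (-0.60), Isg15 (-0.62), Ifitm3 (-0.45), Rbp7 (-0.58), Gng11 (-0.51), Ly6c1 (-0.32), Cox7b (-0.29), Calm2 (-0.22), Prune2 (0.49), Slc8a1 (0.38), Cacna1c (0.38), Acacb (0.32), Adcy5 (0.25), Mtor (0.23) and Baz1b (0.21). Nkx2-5 (0.45) and Dnajc30 (0.35) had larger ones, and Kdr (-0.28, edgeR adjusted p = 0.0366) and Myl3 (0.22, 0.0323) were called under the offset alone.

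**Figure D4:**
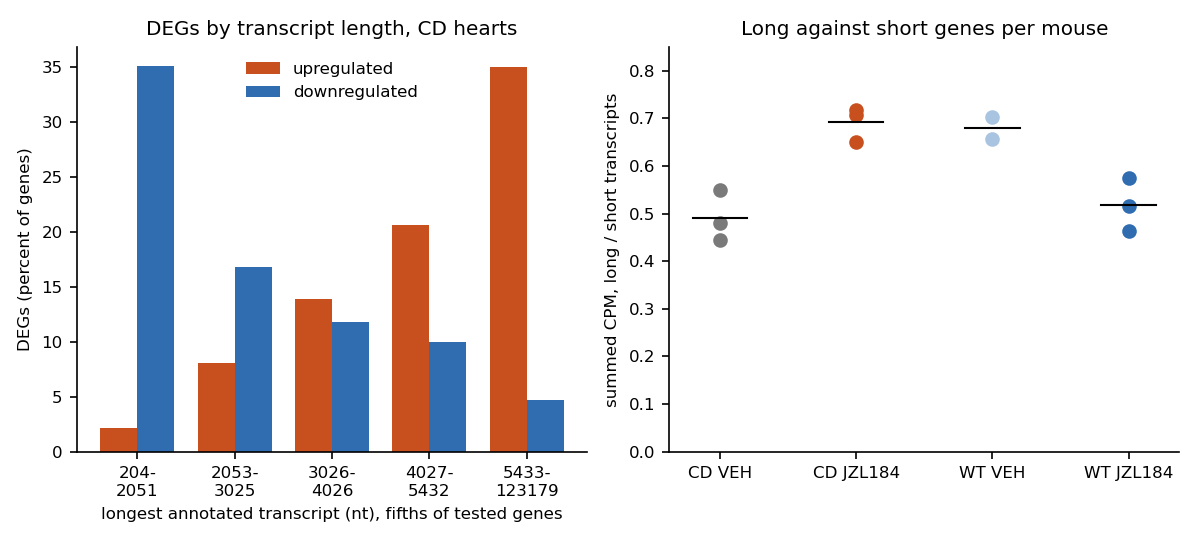
Left, percent of tested genes upregulated or downregulated in CD JZL184 against CD VEH in 5 bins of the longest annotated transcript (nt). Right, summed CPM of genes of at least 6000 nt over that of genes of at most 2000 nt in each mouse (points) with the group mean (bar), which is 0.650 to 0.718 in CD JZL184 and 0.445 to 0.549 in CD VEH.

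The comparison of JZL184 with vehicle was also made in WT hearts. The effect of JZL184 differed between CD and WT hearts for 6165 genes (50.4%) by the interaction test of edgeR (3030 more positive and 3135 more negative in CD), and 3710 of the 3858 DEGs in CD hearts (96.2%) were among them. The effect in CD hearts is part of that test, so a high share among these DEGs was favoured in advance. Of the 1945 genes upregulated in CD hearts, 1915 had a lower level in WT JZL184 than in WT VEH, and of the 1913 downregulated, 1854 had a higher one. Their median log2 fold-changes in WT hearts were -0.29 and 0.35. Across genes, Pearson's r between the effects in CD and in WT hearts, which share no mice, was -0.79, and no gene was a DEG in the same direction in both. In the WT mice the ratio of long to short genes was 0.704 and 0.657 in WT VEH and 0.463 to 0.575 in WT JZL184, and the summed endothelial markers were 1049 and 1051 CPM in WT VEH and 1603 to 1876 CPM in WT JZL184. The mitochondrial genome gave 41.2% and 39.4% of the counts in WT VEH and 45.0% to 46.6% in WT JZL184. The length ratio, the endothelial sum and the mitochondrial share thus moved in opposite directions in the 2 genotypes, as the DEGs did. No gene in the table checks which mice received JZL184, and no measure of RNA quality was used here, so the part of sample labels and RNA quality in these results was not tested.

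**Figure D5:**
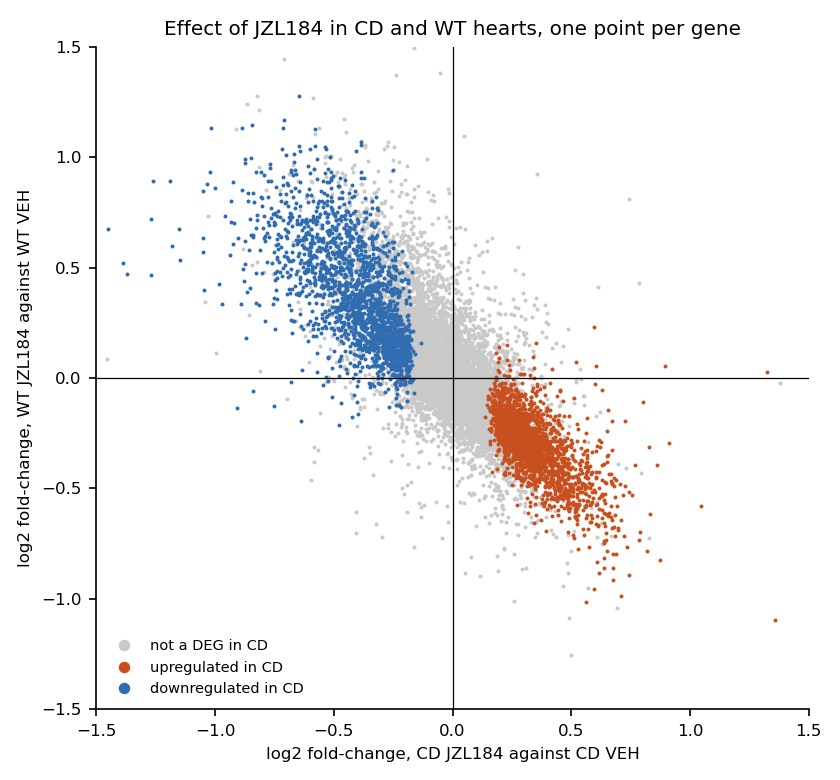
Log2 fold-change of JZL184 against vehicle in CD hearts (horizontal axis) and in WT hearts (vertical axis), with 1 point per tested gene and 20 genes outside the axes. The DEGs of CD hearts lie mostly in the quadrants of opposite sign: 1915 of 1945 upregulated genes were lower and 1854 of 1913 downregulated genes were higher in WT JZL184 than in WT VEH.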

How the data were processed

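The authors sequenced heart RNA of 11 mice, ran Salmon 0.7.2 against the Ensembl 85 transcripts of GRCm38 and collapsed the output to genes by tximport 1.2.0. The table they deposited gives estimated counts for each gene and mouse, not normalized, and all its columns name a group. After rounding of these estimated counts to whole numbers, edgeR 4.0.16 (R 4.3.3, limma 3.58.1) was used with TMM factors and its quasi-likelihood test, in a model of all 4 groups without covariates, since the groups then share an estimate of the spread. The study used DESeq2 1.26.0, which served here (version 1.42.0) as an alternative. P-values were adjusted over the 12228 genes by the Benjamini-Hochberg method, and standard errors were derived from the F statistic. The common biological coefficient of variation was 9.46%. The longest transcript of each gene came from GENCODE mouse release M21, which matched 22238 of 22608 identifiers, and a length offset was fitted per mouse.

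Genes were named by a rule: the 8 lowest and the 8 highest log2 fold-changes of DEGs with at least 10 CPM and groups that did not overlap, the 5 lowest p-values in each direction, up to 3 DEGs per direction in each of 39 functional lists with their defining members, and the endocannabinoid genes. Further genes (Cnn2, Ifit1, Cox7a1, Ppbp and the ribosomal exceptions) were named after their values were seen. A total of 19 marker lists gave counts and summed levels. The members and lists were chosen with earlier results of these data known. The comparison of CD JZL184 with CD VEH was tested on simulated counts with edgeR, DESeq2 and the length offset. The simulation gave all genes the same dispersion and no trend with length. The interaction test and the comparison in WT hearts were not tested in this way. Alternatives were other size factors, filters, DESeq2, the length offset, a model of the CD mice alone and leaving out each mouse. A few genes are not reported here.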

Additional observations from a re-analysis of the deposited data

Results flagged for a closer look

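The effect of JZL184 differed between CD and WT hearts, by edgeR's interaction test, for 6165 genes and for each of the 16 genes with the highest or lowest log2 fold-change in CD hearts among DEGs of at least 10 CPM without overlap between the CD groups. These 16 genes were chosen by their effect in CD hearts, which is part of the difference tested, so that a difference in all 16 was favoured by the choice. The difference is given as the log2 fold-change in CD hearts minus that in WT hearts, which rest on 2 WT VEH and 3 WT JZL184 mice. It was -4.00 for Cyp26b1, -2.69 for Hmox1, -2.16 for Ccl6, -1.96 for Ifi27l2a, -1.91 for Pf4, -1.91 for Ube2l6, -1.68 for Ctla2a and -1.41 for Lyve1. Among the genes that rose in CD hearts it was 1.64 for Prune2, 1.63 for Fnip2, 1.52 for Ppp1r9a, 1.44 for 1110002E22Rik, 1.29 for Polq, 1.257 for Aldh1l2, 1.25 for Epha4 and 1.16 for Mylk4. In WT hearts Ccl6 and Lyve1 were higher with JZL184, and Mylk4 and Epha4 were lower, in the group means.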

How the results depend on the processing

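The numbers of DEGs stayed within 1.5 times of the reported values under DESeq2, RLE or upper-quartile factors, other filters, a model of the 6 CD mice, an offset for gene length and the removal of mitochondrial genes, from 1555 to 2347 upregulated and from 1470 to 2401 downregulated. Upper-quartile factors gave 44.0% upregulated among the calls (1694 of 3852 genes, with 2158 downregulated), and the other settings of this kind 49.1% to 51.6%. With a floor of 0.5 on the size of the log2 fold-change there were 240 upregulated and 533 downregulated. Leaving out a CD mouse gave 1000 to 2060 upregulated and 965 to 1903 downregulated genes, and with any of the 11 mice left out there were 4724 to 6785 genes whose effect differed between CD and WT hearts. That number was 6316 under DESeq2, 6163 with RLE factors and 5592 with the length offset. Of 228 named DEGs, 132 kept their call with any CD mouse left out, and 168 with the length offset, under which Lamtor2 turned to 0.15. No paired analysis was possible because the columns of the table carry letters that are in no sample label, so that mice could not be matched to their replicate numbers. Among the tested genes with the lowest mean levels (1 to 4.49 CPM), 4.13% were upregulated and 12.3% downregulated, against 15.9% and 15.6% of all tested genes.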

Other observations

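Some lists outside the comparisons above held genes that moved in both directions. Of 18 muscle splicing regulators, 8 were upregulated (44.4%, against 15.9% of all genes) and 3 were downregulated (16.7%, against 15.6%). Rbm20, which governs the splicing of titin, had 134, 129 and 118 CPM in CD VEH and 198, 174 and 223 CPM in CD JZL184 (adjusted p = 0.00507 by edgeR, log2 fold-change 0.64, SE 0.13). Of 20 dystrophin complex genes, 9 were upregulated (45%) and 1 was downregulated (5%), with the dystroglycan gene Dag1 at 222, 240 and 201 CPM against 293, 318 and 316 CPM (0.48), and the 9 became 4 without CD JZL184 mouse A or E or CD VEH mouse E and 3 without CD VEH mouse A. The 8 upregulated splicing regulators became 5 without CD JZL184 mouse E or CD VEH mouse E, and the 3 downregulated ones 0 or 1 without any mouse other than CD VEH mouse C.

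Of 39 translation factors, 4 were upregulated (10.3%, against 15.9% of all genes) and 11 were downregulated (28.2%, against 15.6%). The elongation factor gene Eef1a2, the form of adult muscle, had a log2 fold-change of 0.34, and Eef1a1, the form of most other cells, one of -0.55, which was not called without CD JZL184 mouse A or E or CD VEH mouse A or E. Without these mice the factors numbered 2 upregulated and 5 or 6 downregulated. Of 37 proteasome genes, 3 were upregulated (8.11%) and 11 were downregulated (29.7%), the 3 becoming 0 or 1 without any mouse other than CD VEH mouse C, the 11 becoming 3 without CD JZL184 mouse E and 4 without CD JZL184 mouse A or CD VEH mouse A or E, and 2 being downregulated with the length offset. Of 21 cell cycle genes, 6 were downregulated (28.6%), including Pcna (-0.38, and -0.23 with the length offset), a clamp of DNA polymerase, and 1 to 6 were downregulated with a CD mouse left out, the lowest without CD JZL184 mouse A or CD VEH mouse A or E. Of 34 inflammasome and antioxidant genes, 10 were downregulated (29.4%) and 2 were upregulated (5.88%), with catalase (Cat) at 0.38, and the 10 became 3 and 1 without CD JZL184 mouse A and E and 1 and 2 without CD VEH mouse A and E. Of 35 genes of mitochondrial dynamics and import, 8 were upregulated (22.9%), such as the fusion gene Opa1 (0.45), and 5 were downregulated (14.3%), such as Timm8b (-0.51, and -0.12 with the length offset, edgeR adjusted p 0.1), a small import chaperone, and these became 5 and 3 without CD JZL184 mouse A or E or CD VEH mouse A or E.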
